A study of Mus musculus with 2 samples.

Results

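The genes described here are the mouse proteasome genes and their immunoproteasome variants in sorted bone marrow niche cells. They were taken by name, as every protein-coding gene of the deposited table whose symbol begins with Psma to Psmg followed by a digit. This gave 50 of 54532 genes. Of these, 48 encode subunits, regulators or assembly factors of the proteasome. The other 2 were set apart: Psmc3ip, which encodes a meiotic recombination protein, and Psme2b, a retrogene copy of Psme2. Within the 48, the 5 genes known for their response to interferon (Psmb8, Psmb9, Psmb10, Psme1 and Psme2) were compared with the remaining 43.

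All recipients were female CB6F1 mice that received 2 irradiation doses of 4.0 Gy and, 4 hours later, marrow cells from B6.SJL donors. The BMT group received marrow only. The group labelled aGVHD_V additionally received C57BL/6 spleen cells to induce acute graft-versus-host disease, in which donor T cells attack the recipient; the sources used here do not say what V stands for. Stromal cells were sorted from marrow after labelling CD45, lineage antigens and CD71 to remove blood cells, with dyes to keep live cells. Each group has 1 library (called BMT and aGVHD_V below). The sources used here do not give the age of the mice or the number pooled. No difference below has a replicate check.

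The proteasome degrades proteins tagged with ubiquitin. Its barrel-shaped 20S core has outer alpha rings, which gate the entry, and inner beta rings, which hold 3 kinds of catalytic subunit encoded by Psmb5, Psmb6 and Psmb7. Interferon gamma induces the replacements Psmb8, Psmb9 and Psmb10, and the resulting immunoproteasome yields peptides suited to MHC class I. The 19S cap binds, unfolds and admits tagged proteins. PA28, encoded by Psme1 and Psme2 and likewise induced by interferon gamma, is another cap. In maturing red cells and in antibody-secreting cells the proteasome is known to clear a large load of protein.

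Levels are given as FPKM, which is fragments per kilobase scaled to library size, and they allowed each gene's reads to be recovered. The recovered reads summed to 10869191 (BMT) and 11299834 (aGVHD_V). The authors' FPKM imply library sizes of 1.21e+07 (BMT) and 1.07e+07 (aGVHD_V), which differ from these sums and have the opposite order. Folds are FPKM ratios of aGVHD_V over BMT, and differences are on the log2(FPKM + 1) scale, aGVHD_V minus BMT. Counts of genes past 2-fold or 1.5-fold use these differences, which understate the change of low genes. The widened 95% interval beside a fold treats a group of reads as if it were 1 molecule (14 reads for BMT and 44 for aGVHD_V, the most frequent read numbers). How far these read numbers reflect copies of 1 molecule was not tested. Intervals cover counting error only, with no variation between mice.

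The makeup of the libraries differed. All 6 mesenchymal stromal markers were lower by 2-fold or more in aGVHD_V (summed FPKM 522 against 24.1, Lepr at 0), as were 4 of 5 endothelial markers (55.8 against 11.2, Cdh5 and Kdr at 0). Of 8 erythroid markers, 6 were higher by 2-fold or more (summed FPKM 44539 against 165308), and all 8 were above 0 with the authors' scaling but 7 with equal FPKM sums, a setting described below. Of 8 T and NK cell markers, 3 were higher by 2-fold or more on the log2(FPKM + 1) scale (67.6 against 144). Of 4 measured B cell markers all were lower (summed FPKM of the 5 listed 63.2 against 1.5), and the 7 neutrophil markers lay within 2-fold (14662 against 19519). Of 5 monocyte and macrophage markers 4 were below 0 (median difference -0.70, summed FPKM 146 against 152), while Ly6c2 was higher (93.2 against 122). Of 3 plasma cell markers 2 were below 0 (summed FPKM 46.8 against 36.6). The other, Jchain, was higher at 1.70 against 10.5 (52 and 281 reads, fold 6.15, interval 1.46 to 30.9). Of the 2 plasma cell markers with a fold, only Jchain had a widened interval that left out 1. The markers of the labelled cell type were thus low or at 0 in aGVHD_V, while blood cell genes were abundant in both libraries. The part of this shift in the values below was not tested. The proteasome is made in every cell type, so these are values of the mixed sample, in which fewer cells of a type and less RNA per cell cannot be told apart.

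Proteasome transcripts were abundant in both libraries, and most lay within 1.5-fold between them. Of the 48 genes, 47 were measured, which means an FPKM that reached 1 in either library. The exception was Psmb11, the catalytic subunit of the thymus, which had no reads in either library. The 47 genes took 0.654% of all BMT reads and 0.662% of all aGVHD_V reads. The median level was 40.6 FPKM for BMT and 46.9 for aGVHD_V. The order of levels was much the same in both: over the 47 genes, which share library and gene length, log2(FPKM + 1) had a Spearman's rho of 0.928 and a Pearson's r of 0.917. Psme3 had the highest FPKM and Psmb4 the next in both libraries. This order rests on the table's gene lengths, as do the other rankings of level below, and other lengths could give another order.

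**Figure D1:**
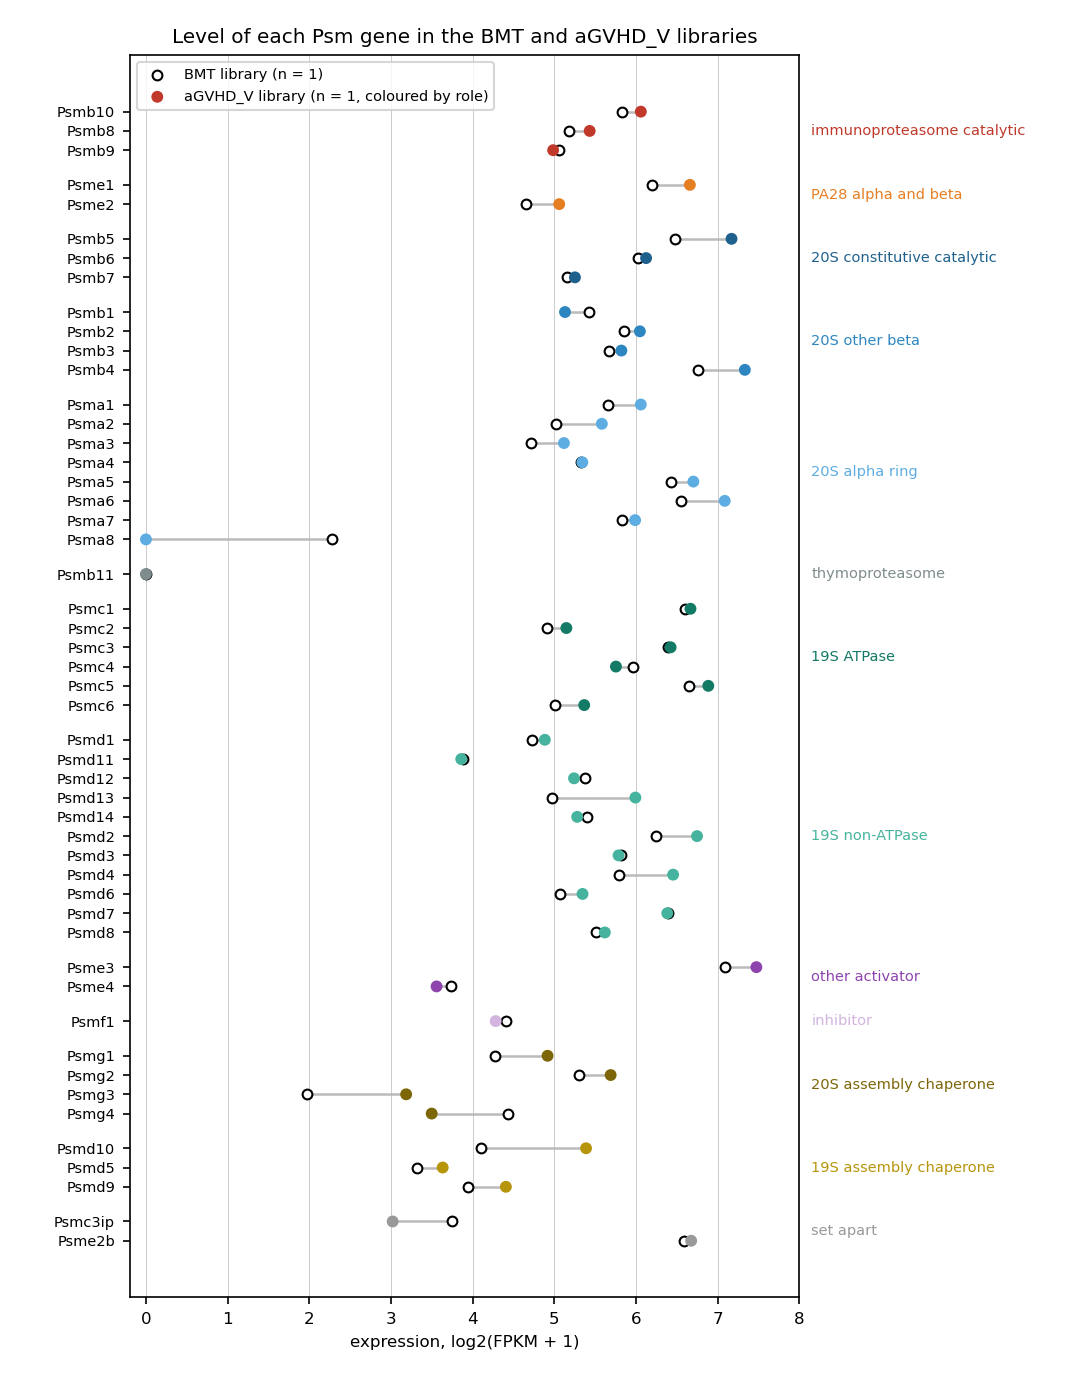
Level of each of the 50 genes on the log2(FPKM + 1) scale (horizontal axis), grouped by role, with the BMT library as open circles and the aGVHD_V library as filled circles, 1 library each. Most pairs of circles lie close together between 3 and 8, and the long connecting lines are those of Psma8, Psmd10, Psmg3, Psmd13 and Psmg4.

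At least 2-fold higher in aGVHD_V were 3 of the 47 measured genes, Psmd10, Psmd13 and Psmg3, against 8.65% of the 12942 measured genes of the table. At least 2-fold lower was 1 gene, Psma8, against 19.4% of all measured genes. At the lower threshold of 1.5-fold, 6 were higher (background 17.5%) and 2 were lower (background 28.5%). The 1.5-fold higher genes were Psmd10, Psmg3, Psmd13, Psmb5, Psmd4 and Psmg1, and the lower ones Psma8 and Psmg4. Neither higher count exceeded the background share, and both lower counts were under it. Of the 47 genes, 35 had a difference above 0 with the authors' scaling of library size. The count was 34 when centred on the median gene and 34 when scaled to the upper quartile of measured genes. It was 32 with library sizes that leave out hemoglobin, mitochondrial and ribosomal protein genes. When library size was the sum of recovered reads it was 22, and with FPKM rescaled to the same sum in each library 6. The last 2 scalings moved the median of all measured genes by -0.21 and -0.55, so the direction of small differences depends on the scaling. The FPKM sum was 340171 in BMT and 507958 in aGVHD_V, with the 8 erythroid markers at 44539 and 165308. The part of the erythroid markers in these changes was not tested. The 6 genes that stayed above 0 under every setting in which they were measured were the 6 named as 1.5-fold higher. A scaling shifts most differences nearly alike and keeps much of their order, so this repeats their rank and is no separate check. The widened intervals of Psmg3 and Psmg1 included no difference.

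The 3 catalytic subunits of the immunoproteasome lay within 1.5-fold of level with the authors' scaling, while with equal FPKM sums all 3 were lower in aGVHD_V and Psmb9 passed 1.5-fold. Psmb8, which takes the place of Psmb5 and cuts after hydrophobic residues, stood at 35.2 FPKM in BMT and 42.2 in aGVHD_V (1167 and 1232 reads). Its fold was 1.2 (widened interval 0.753 to 1.86). Psmb9, which takes the place of Psmb6, had an FPKM of 32.2 against 30.7 (1429 and 1198 reads, fold 0.954, interval 0.601 to 1.47). Psmb10, which takes the place of Psmb7, had an FPKM of 56.1 against 65.7 (1159 and 1195 reads, fold 1.17, interval 0.731 to 1.83). All 3 intervals included no difference. With equal FPKM sums the differences were -0.31 for Psmb8, -0.64 for Psmb9 and -0.35 for Psmb10. Psmb8 (ENSMUSG00000024338, chromosome 17, 34197721 to 34201454, plus strand of GRCm38) and Psmb9 (ENSMUSG00000096727, chromosome 17, 34181988 to 34187764, minus strand) lie in the MHC region beside the peptide transporter genes Tap1 and Tap2. Psmb9 overlaps Tap1 on the opposite strand, and the sources used here do not say whether counting used strand, so their reads may not be fully separated. Psmb10 (ENSMUSG00000031897) lies apart from them on chromosome 8, 105935735 to 105938444.

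Of the constitutive partners, Psmb5 differed most with the authors' scaling and least with equal FPKM sums. Psmb5 stood at 88.1 FPKM in BMT and 143 in aGVHD_V (960 and 1372 reads), 1.63-fold higher (interval 1.03 to 2.52). Its difference of 0.69 was the only one past 1.5-fold among the 6 catalytic subunits with the authors' scaling. With equal FPKM sums it was 0.12, the smallest in size of the 6, and Psmb9 was the one past 1.5-fold. Psmb6, with a caspase-like activity, had an FPKM of 64.1 against 68.8 (fold 1.07, interval 0.695 to 1.62). Psmb7, with a trypsin-like activity, had an FPKM of 34.8 against 37.2 (fold 1.07, interval 0.69 to 1.61).

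The balance within each pair does not depend on the scaling of the libraries. Psmb8 made up 28.5% of the summed FPKM of Psmb8 and Psmb5 in BMT (widened interval 22.3 to 35.8) and 22.8% in aGVHD_V (14.6 to 33.7). The ratio of Psmb8 to Psmb5 in aGVHD_V was thus 0.739 times that in BMT. The exact conditional interval of this quotient was 0.657 to 0.83 over single reads, and 0.393 to 1.43 with reads grouped as above, which includes no difference. Psmb9 made up 33.4% of its pair with Psmb6 in BMT and 30.9% in aGVHD_V (quotient 0.888, interval 0.798 to 0.99 over single reads and 0.474 to 1.66 widened). Psmb10 made up 61.7% of its pair with Psmb7 against 63.9% (quotient 1.1, interval 0.982 to 1.23 over single reads and 0.571 to 2.04 widened). The immuno share was thus higher for BMT in 2 pairs and for aGVHD_V in 1, and no difference was beyond the widened counting error, while those of the Psmb8 and Psmb9 pairs were beyond that of single reads.

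**Figure D2:**
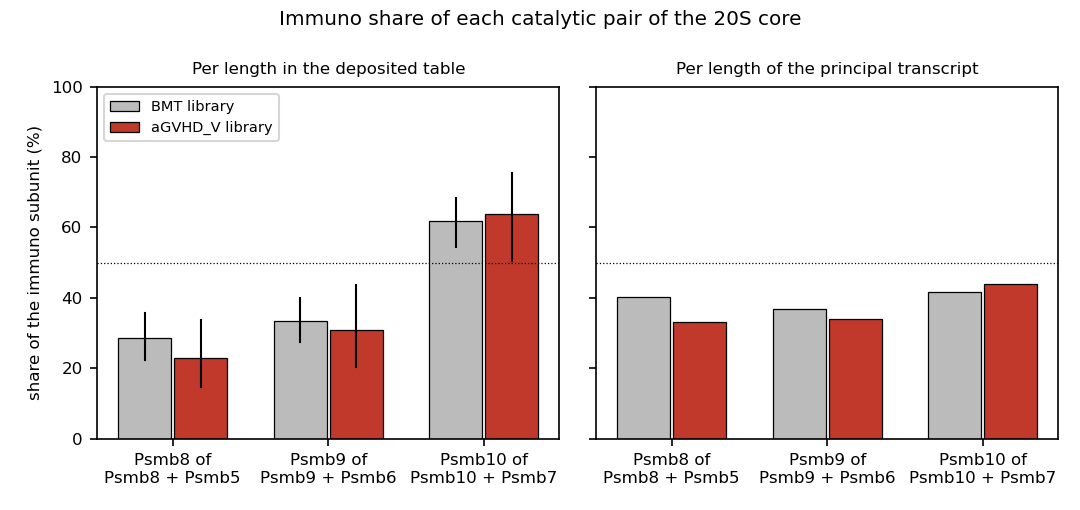
Share of the immuno subunit in the summed level of each catalytic pair (vertical axis, percent), in BMT (grey) and the aGVHD_V library (red), per kilobase of the table's gene length on the left and of the principal transcript on the right. Lines on the left are widened 95% counting intervals, and the dotted line marks an equal share. The Psmb10 share lies above it with the table's length (61.7% and 63.9%) and below it with the transcript length (41.5% and 43.8%).

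These shares compare levels between genes and so rest on the gene length. The table's length exceeds that of the principal transcript in GENCODE M21 by a factor of 1.0 for Psmb5, 1.68 for Psmb8, 2.71 for Psmb9, 2.35 for Psmb6, 1.3 for Psmb10 and 2.95 for Psmb7. With transcript lengths the Psmb8 share was 40.2% in BMT and 33.1% in aGVHD_V, and that of Psmb10 was 41.5% and 43.8%. Which subunit of a pair is the more abundant is therefore fixed for Psmb8 and Psmb9 under both lengths, but not for Psmb10. The quotients between libraries are the same under either length.

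The upstream sequences of both members of the Psmb8 and Psmb9 pairs are shown because these genes are known to be under different control: interferon-regulated factors for Psmb8 and Psmb9, and the bounce-back factor Nfe2l1, which acts through antioxidant response elements, for the constitutive genes. They are the 250 bases before the RefSeq start (GRCm38.p6), 5′ to 3′ on the gene's strand. Capitals mark matches to 4 motifs searched on both strands: the interferon-stimulated response element core (GAAA and GAAA with 2 bases between), the gamma-activated site TTCNNNGAA, the antioxidant response element core TGACNNNGC and the CCAAT box.
Psmb5 (chr14:54617996-54618245, minus strand): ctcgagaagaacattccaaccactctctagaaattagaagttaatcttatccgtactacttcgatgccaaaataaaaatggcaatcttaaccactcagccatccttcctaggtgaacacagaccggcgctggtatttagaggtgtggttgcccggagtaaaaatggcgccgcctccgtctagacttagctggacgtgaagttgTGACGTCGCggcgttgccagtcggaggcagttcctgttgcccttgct
Psmb8 (chr17:34197945-34198194, plus strand): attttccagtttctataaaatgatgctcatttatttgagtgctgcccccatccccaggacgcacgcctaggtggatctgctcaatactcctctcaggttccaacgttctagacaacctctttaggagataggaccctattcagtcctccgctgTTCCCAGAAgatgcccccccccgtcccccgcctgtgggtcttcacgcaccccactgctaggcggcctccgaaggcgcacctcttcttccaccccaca
Psmb6 (chr11:70525107-70525356, plus strand): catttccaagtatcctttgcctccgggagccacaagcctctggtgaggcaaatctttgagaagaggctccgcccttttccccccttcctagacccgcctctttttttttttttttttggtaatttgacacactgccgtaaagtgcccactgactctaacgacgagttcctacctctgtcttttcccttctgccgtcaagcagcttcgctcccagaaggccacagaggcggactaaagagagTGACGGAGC
Psmb9 (chr17:34187331-34187580, minus strand): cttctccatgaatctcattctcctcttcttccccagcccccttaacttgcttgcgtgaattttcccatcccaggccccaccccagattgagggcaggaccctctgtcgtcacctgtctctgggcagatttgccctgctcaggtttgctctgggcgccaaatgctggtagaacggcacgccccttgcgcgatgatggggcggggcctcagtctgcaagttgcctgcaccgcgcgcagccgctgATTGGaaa

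Psmb5 and Psmb6 each hold 1 match to the antioxidant response element core, Psmb8 holds 1 gamma-activated site and Psmb9 holds 1 CCAAT box on the other strand. Each of the 4 stretches holds 1 match, so none overlaps another. Over windows of 300 bases (250 before to 50 after the start), promoters were matched by symbol for 42 of the 50 genes, of which 40 belong to the proteasome. The antioxidant response element core was found for 6 of these 40 (15%), against 14% of 27025 genes. The interferon-stimulated core was found for 5 of 40 (12.5%, against 3.99% of all genes), namely Psmb3, Psmd4, Psmd9, Psme1 and Psmg4. The gamma-activated site was found for 3 of 40 (7.5%, against 9.55%) and the CCAAT box for 14 of 40 (35%, against 41.1%). Of the 5 interferon-responsive genes, 1 held the interferon-stimulated core and 1 the gamma-activated site. The Psmb10 and Psmb7 pair is not printed, and neither gene was among those with a match to any of the 4 motifs. A match is a description of these letters in this window and not of binding. The table's Psmb8 and Psmb9 genes both start upstream of the RefSeq starts (34198195 and 34187330), so their printed stretches lie inside the table's genes, and other starts would give other windows.

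The PA28 genes had the highest differences of the 5 with the authors' scaling and with equal FPKM sums, but not with Psme2 and Psme2b summed, where PA28 beta (0.21) lay below Psmb8 and Psmb10. Psme1, the alpha subunit (ENSMUSG00000022216, chromosome 14, 55578123 to 55581529), stood at 72.6 FPKM in BMT and 100.2 in aGVHD_V (1945 and 2360 reads). Its fold was 1.38 (interval 0.988 to 1.9), and its difference of 0.46 became -0.11 with equal FPKM sums. Psme2, the beta subunit (ENSMUSG00000079197, chromosome 14, 55587441 to 55591113), had an FPKM of 24.2 against 32.4 (517 and 609 reads, fold 1.34, interval 0.667 to 2.54), and its difference of 0.41 became -0.15 with equal sums. Psme2b (ENSMUSG00000078153, chromosome 11, 48945354 to 48946190) had an FPKM of 95.7 against 101 (971 and 904 reads, fold 1.06, interval 0.614 to 1.75). The other gene set apart, Psmc3ip, stood at 12.4 FPKM against 7.12 (fold 0.575, interval 0.114 to 1.91).

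The division of reads between Psme2 and its retrogene is uncertain. Their coding sequences in GENCODE M21 are both 720 bases long and differ at 5 positions, C312T, A369G, C489T, C519T and C543T (Psme2 base, position from the A of the start codon, Psme2b base), all at the 3rd base of a codon. The longest run without a difference is 311 bases. Positions 454 to 543, which hold 3 of the differences (capitals), show how closely the copies match.
Psme2: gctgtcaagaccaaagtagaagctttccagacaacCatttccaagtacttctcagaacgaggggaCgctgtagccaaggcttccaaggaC
Psme2b: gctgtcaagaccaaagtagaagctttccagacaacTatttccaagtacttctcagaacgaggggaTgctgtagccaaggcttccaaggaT

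A short read between these positions does not tell the genes apart. Per kilobase Psme2b stood at 3.96 times Psme2 in BMT and 3.13 times in aGVHD_V. These ratios rest on the table's lengths, which were 1.83 times the principal transcript for Psme2 and 1 times for Psme2b. Transcript lengths would give smaller ratios. The summed reads of both were 1488 against 1513, a fold of 1.16 (interval 0.763 to 1.71). For PA28 beta the summed value is smaller than the fold of Psme2 alone.

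**Figure D3:**
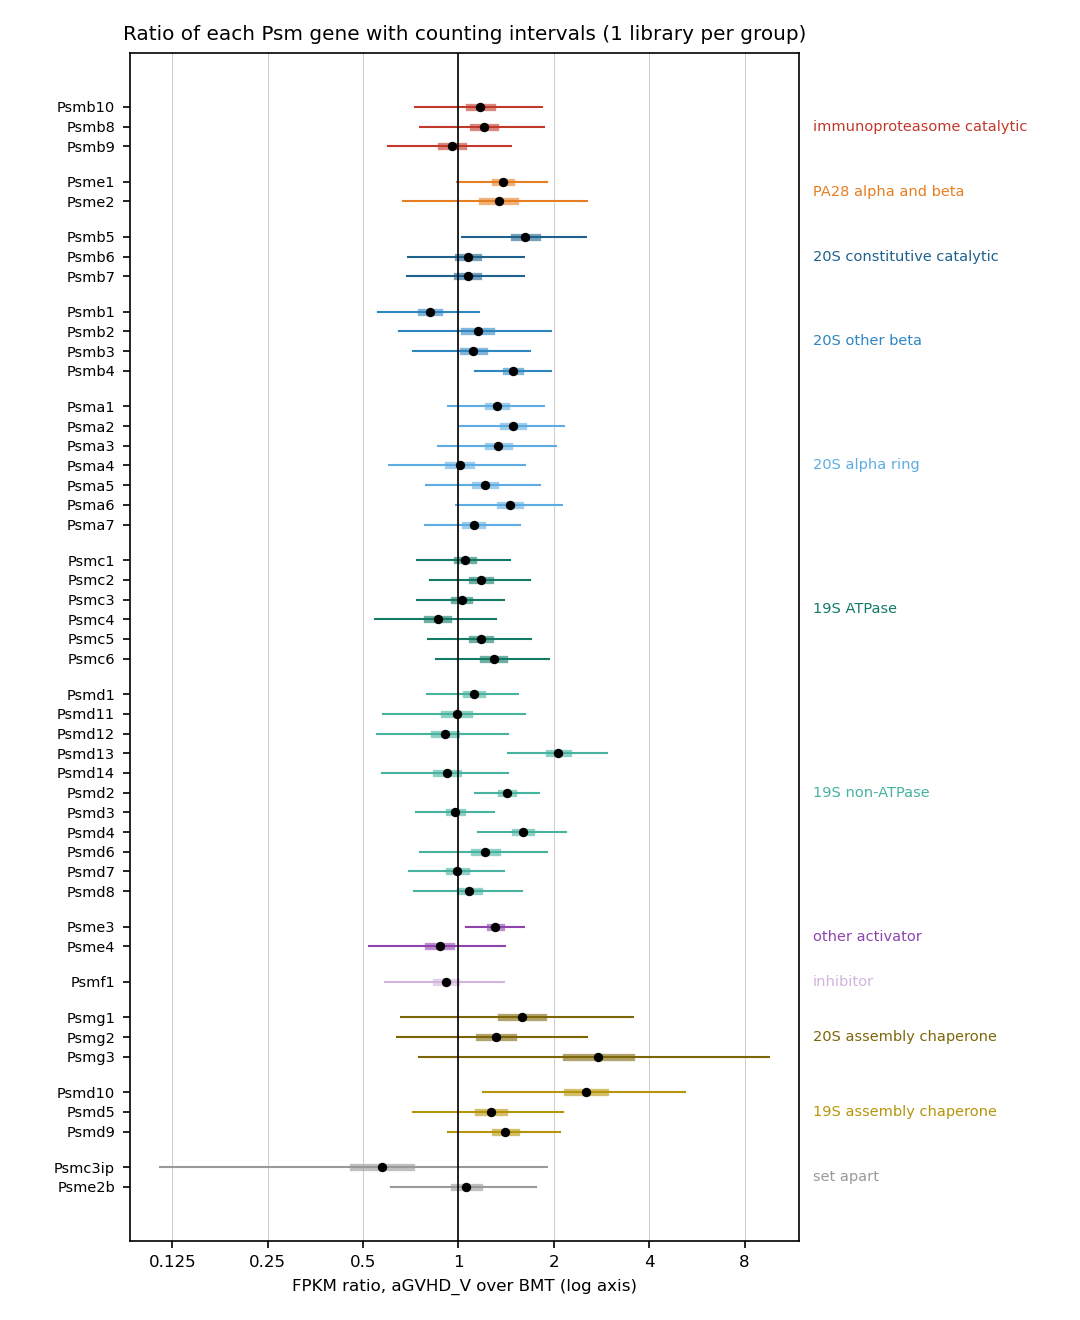
FPKM ratio of aGVHD_V over BMT (horizontal log axis) for the 45 proteasome genes with a ratio and the 2 set apart, by role, with 1 library per group. Points are ratios with the authors' scaling, thick bars the 95% intervals over single reads and thin lines the widened ones. The immunoproteasome and PA28 ratios, 0.954 to 1.38, lie among those of the other roles, and Psmg3, Psmd10 and Psmd13 stand farthest right, the last 2 with lines that leave out 1.

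Genes of the remaining 20S core lay on both sides of level. Of the 7 constitutive beta subunits, 6 were above 0 with the authors' scaling and 1 with equal FPKM sums (median difference 0.15 against -0.42). Psmb4, whose subunit takes part in assembling the core, stood at 108 FPKM in BMT and 160 in aGVHD_V (fold 1.49, interval 1.12 to 1.96). Its difference of 0.57 became -0.0035 under equal sums. Psmb1 lay on the other side at 41.9 against 34.1 (fold 0.814, interval 0.556 to 1.16). Psmb2 and Psmb3 had folds of 1.15 and 1.11, both with intervals that included no difference.

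The alpha ring genes had a median difference of 0.34 over 8 measured members, and of -0.24 with equal FPKM sums. Psma2 had an FPKM of 31.6 against 46.9 (fold 1.49, interval 1.01 to 2.15), and its difference of 0.56 became -0.006 with equal sums. The gene AW209491, which overlaps it on the same strand, had 165 reads against 0. Psma6, with the highest FPKM of the ring, had 92.9 against 135 (fold 1.45, interval 0.983 to 2.12). Psma4 was nearly level at 39.3 against 39.6 (fold 1.01, interval 0.603 to 1.62). Folds of Psma1, Psma3, Psma5 and Psma7 lay between 1.12 and 1.34, with intervals that included no difference. Psma8, the alpha subunit of male germ cells, had 79 BMT reads (3.85 FPKM) and 0 aGVHD_V reads. The limit that 0 reads allow there is 132 reads, above the BMT read number, so no fold can be given, and the gene is counted as 2-fold lower on the log2(FPKM + 1) scale alone.

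The ATPases of the 19S base unfold substrates and push them into the core. All 6 lay within 1.5-fold with the authors' scaling, with a median difference of 0.15 (-0.43 with equal FPKM sums) and a range from -0.21 to 0.36. Psmc6 had the largest fold, 1.29 (FPKM 31.2 against 40.3, interval 0.846 to 1.93), and Psmc4 the smallest, 0.86 (61.6 against 53.0, interval 0.547 to 1.31). Psmc5 had the highest FPKM of them, 99.7 against 117 (fold 1.18, interval 0.8 to 1.7). All 6 widened intervals included no difference.

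The non-ATPase subunits of the cap were less even. Psmd13, a structural subunit of the lid (ENSMUSG00000025487, chromosome 7, 140881968 to 140898643), stood at 30.4 FPKM in BMT and 62.7 in aGVHD_V (1243 and 2259 reads). It was 2.07-fold higher (interval 1.44 to 2.95), with a difference of 1.02 that became 0.46 under equal FPKM sums. It moved from rank 33 to rank 17 of the 47 genes. Genes that overlap it went the other way: the pseudogene Gm15542 on the same strand had 261 reads against 119, and Sirt3 on the opposite strand 110 against 20.

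Psmd4, the ubiquitin receptor Rpn10, had an FPKM of 54.3 against 86.8 (1850 and 2598 reads), 1.6-fold higher (interval 1.16 to 2.19). Psmd2, the base subunit where ubiquitin shuttle proteins dock, had 74.8 against 107 (fold 1.43, interval 1.13 to 1.8), but its difference of 0.51 became -0.07 with equal sums. Psmd14, the enzyme that removes ubiquitin chains, had 41.1 against 37.9 (fold 0.921, interval 0.573 to 1.43). Psmd12, a lid subunit, had the smallest fold at 0.907 (40.6 against 36.9, interval 0.552 to 1.44). The other 6 (Psmd1, Psmd3, Psmd6, Psmd7, Psmd8 and Psmd11) had folds of 0.978 to 1.22. Over the 11 genes the median difference was 0.11, and -0.46 with equal FPKM sums.

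Among the other regulators, Psme3 had the highest FPKM of the family with the table's gene lengths. It encodes PA28 gamma, a nuclear cap that interferon gamma does not induce, and stood at 135 FPKM in BMT and 177 in aGVHD_V (4844 and 5565 reads). Its fold was 1.31 (interval 1.06 to 1.61), with a difference of 0.38 that became -0.19 with equal sums. By FPKM, Psme1 stood at 0.536 times Psme3 in BMT and 0.566 times in aGVHD_V. These ratios rest on the table's lengths, which were 1.99 times the principal transcript for Psme1 and 1.11 times for Psme3. Psme4, the activator PA200, had an FPKM of 12.4 against 10.8 (fold 0.872, interval 0.52 to 1.4). Psmf1, which encodes the proteasome-binding protein PI31, had 20.2 against 18.5 (fold 0.915, interval 0.585 to 1.39).

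Assembly factors, which guide the building of core and cap and do not stay in the finished particle, had 2 of 7 members at least 2-fold higher with the authors' scaling (background 8.65%), and the interval of 1 of these, Psmg3, included no difference. Psmd10 (gankyrin, ENSMUSG00000031429, X chromosome, 140948429 to 140956728) binds an ATPase of the 19S base and stood at 16.2 FPKM in BMT and 40.9 in aGVHD_V (289 and 641 reads). It was 2.52-fold higher (interval 1.2 to 5.18), and its difference of 1.28 was 0.74 with equal FPKM sums. The other 19S assembly factors had smaller folds, 1.4 for Psmd9 (14.4 against 20.2, interval 0.925 to 2.09) and 1.27 for Psmd5 (9.02 against 11.4, interval 0.72 to 2.14).

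Assembly factors of the 20S core act in pairs, Psmg1 with Psmg2 and Psmg3 with Psmg4. Psmg3 stood at 2.94 FPKM in BMT and 8.11 in aGVHD_V (103 and 250 reads, fold 2.76, interval 0.753 to 9.53). Psmg4 had 20.7 against 10.3. It rests on 139 and 61 reads, below the 132 reads that set the floor in aGVHD_V, and no fold is given. Psmg1 had an FPKM of 18.4 against 29.2 (fold 1.59, interval 0.657 to 3.55) and Psmg2 38.6 against 50.7 (fold 1.31, interval 0.638 to 2.54). Erythroid markers and T and NK cell markers, given above, were higher in the same library as Psmd10, Psmd13 and Psmg3. With the authors' scaling these were 8 of 8 in each list, and with equal FPKM sums 7 and 6. Of the T and NK markers 4 had enough reads for a fold, and the widened intervals of 2 left out 1. Of 7 neutrophil markers 6 were above 0 with the authors' scaling and 1 with equal FPKM sums. A link of any list with the 3 genes was not tested.

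The 5 interferon-responsive genes did not stand apart from the rest of the proteasome. Their median difference was 0.26 (range -0.07 to 0.46), against 0.21 for the 42 other measured genes (range -2.28 to 1.28) and -0.07 for all measured genes. The gap between the medians was 0.04. Of the 42 other genes, 11 lay above the highest of the 5, 8 below the lowest and 23 within their range. With equal FPKM sums both medians were below 0, at -0.31 and -0.36, and the gap was 0.05. The 5 took 8.74% of the reads of the 48 genes in BMT and 8.82% in aGVHD_V. The gap ran from 0.01 to 0.08 over all settings, and was 0.01 with the reads of Psme2 and Psme2b summed. Scalings shift both medians almost alike and so could hardly change the gap. A gap this small with 1 library per group does not show that the 5 and the rest act alike.

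**Figure D4:**
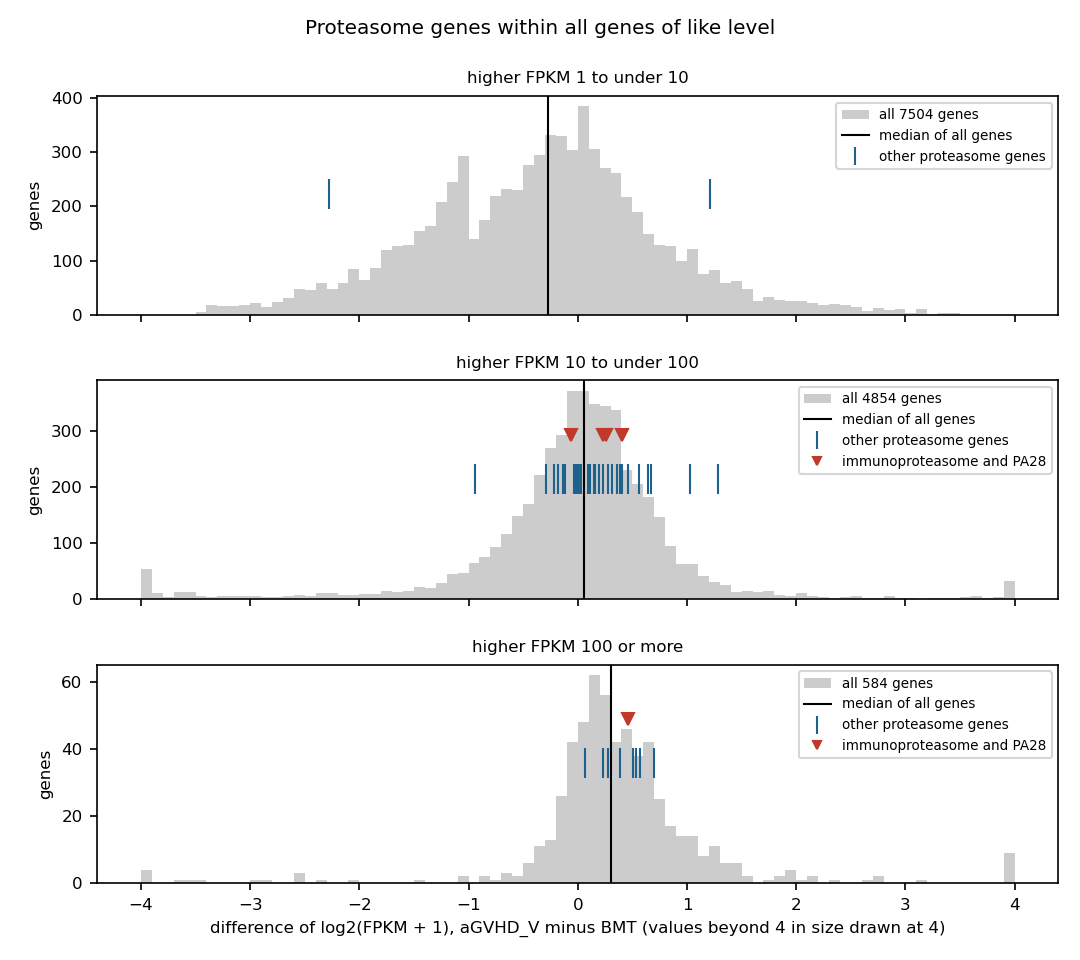
Difference of log2(FPKM + 1), aGVHD_V minus BMT (horizontal axis), for all measured genes of the table (grey, number of genes on the vertical axis) in 3 classes of the higher FPKM, with their median as a black line. Blue ticks are the other proteasome genes and red triangles the immunoproteasome and PA28 genes, drawn at a fixed height. With the authors' scaling the members lie on both sides of the class median, Psmd10 and Psmd13 in the upper tail of the middle class, and the whole picture moves left when the FPKM sums are made equal.

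Abundant genes had higher differences over the whole table, so the family was also read within classes of level. Among genes whose higher FPKM was from 10 to under 100, the 36 proteasome genes had a median difference of 0.16, against 0.06 for all 4854 genes of that class. In this class 2 of the 36 were at least 2-fold higher (background 6.47%) and none was lower (background 8.2%), while 4 were 1.5-fold higher (background 17%) and 1 was 1.5-fold lower (background 15.9%). Among genes of 100 or more, the 9 proteasome genes had a median of 0.46, against 0.30 for all 584. None of the 9 was 2-fold higher (background 12.2%), and 1, Psmb5, was 1.5-fold higher (background 29.6%). None of them was lower by 2-fold (background 2.91%) or 1.5-fold (background 3.94%). Of the 2 genes under 10, Psmg3 was 2-fold higher (background 9.78%, and 16.9% at 1.5-fold) and Psma8 2-fold lower (background 27.9%, and 38.5% at 1.5-fold). The median of the 47 genes exceeded that of all genes by 0.30 with the authors' scaling, and by 0.19 to 0.31 over the other settings. Scalings shift both medians nearly alike, so they do not test this excess. Widened intervals left out 1 for 8 of 45 genes with a fold, all 8 above it with the authors' scaling (background 9.28% above and 3.37% below, of 7961 genes with a fold): Psmb4, Psmb5, Psma2, Psmd2, Psmd4, Psmd10, Psmd13 and Psme3. Intervals narrow with more reads, and this background was not split by level, so the shares are not like for like. By class, intervals left out 1 for 4 of the 9 proteasome genes of 100 or more and 4 of 35 from 10 to under 100. With equal FPKM sums the differences of Psmb4, Psma2, Psmd2 and Psme3 were below 0.

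Genes that work with the proteasome were taken from a list. Of 30 listed partners, ubiquitin genes and regulators, 29 were in the table and measured. On the log2(FPKM + 1) scale none was past 2-fold (background 8.65% higher and 19.4% lower), 2 were at least 1.5-fold higher (background 17.5%) and 2 at least 1.5-fold lower (background 28.5%), with a median difference of 0.12 (-0.45 with equal FPKM sums). Among the higher ones was Usp14, a deubiquitinase of the cap (FPKM 17.5 against 28.7, fold 1.64, interval 1.1 to 2.39). Its difference stayed above 0 with equal sums, at 0.13. The lower ones were Zfand2a, a stress-induced partner (10.7 against 5.45, fold 0.508, interval 0.143 to 1.37), and Uba6, a ubiquitin-activating enzyme, at 1.82 against 0.851 on too few reads for a fold.

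The remaining subunits of the cap lay near level with the authors' scaling. Adrm1, a ubiquitin receptor, stood at 34.3 against 42.2 (fold 1.23, interval 0.859 to 1.74) and Sem1 at 28.7 against 27.2 (fold 0.947, interval 0.573 to 1.51). Pomp, the maturation factor of the core, had an FPKM of 20.4 against 18.8 (fold 0.921, interval 0.561 to 1.46). Nfe2l1, the transcription factor that restores proteasome genes when the proteasome is inhibited, had 20.2 against 16.0 (fold 0.794, interval 0.471 to 1.28). Differences with equal FPKM sums were -0.28 for Adrm1, -0.65 for Sem1, -0.68 for Pomp and -0.89 for Nfe2l1.

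Of 10 listed genes of interferon gamma signalling and class I peptide loading, 7 were lower in aGVHD_V with the authors' scaling and all 10 with equal FPKM sums. Irf1, a transcription factor that induces the immunoproteasome genes, stood at 47.9 FPKM in BMT and 29.4 in aGVHD_V, 1.63-fold lower (interval 1.09 to 2.52), and was lower under each scaling tried. Nlrc5, the activator of class I genes, had 18.5 against 14.9 (fold 0.807, interval 0.527 to 1.2). Irf8, a factor of myeloid cells, was lower by over 2-fold (6.29 against 2.42), with an interval of the fold (0.103 to 1.05) that included no difference. Tap1, which shares its promoter region with Psmb9, had 51.5 against 44.9 (fold 0.873, interval 0.646 to 1.16), and Tap2 25.8 against 26.4. Those above 0 with the authors' scaling were Tap2, B2m, the light chain of class I molecules (1889 against 1929), and Irf9, an interferon-regulated transcription factor (14.2 against 19.5). Past 1.5-fold 2 of the 10 were lower (background 28.5%) and 0 higher (background 17.5%), and the median difference was -0.24, below 0 under each scaling. The scalings other than the authors' moved the median of all measured genes by -0.01 to -0.55, so values already below 0 could hardly turn. Neither Irf1 and the median staying below 0 nor all 10 being lower with equal FPKM sums is thus a separate check. Of the 5 monocyte and macrophage markers, given above, 4 were also lower with the authors' scaling (Mrc1 8.22 against 2.83). Ly6c2, with the highest FPKM of them, was higher (93.2 against 122, interval 0.999 to 1.69). Among the 4 of these markers with a fold, only the widened interval of Mrc1 left out 1. The part of these markers in the values of the 10 listed genes was not tested. Lower Irf1 stood beside Psmb8 and Psmb10 with folds of 1.2 and 1.17, and Psmb9 with 0.954.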

How the data were processed

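RNA sequencing of sorted marrow stromal cells gave 1 library per group. The authors deposited FPKM per gene, per the file headers, and the gene length (in bases) beside them. The builds GRCm38 and mm10 and the tool edgeR 3.18.1 appear in the submitters' processing notes, with no role given. The aligner, counter and strand setting are not stated in the sources used here. Of the value columns, 1 could be tied to no sample and was left out. FPKM times length per 1000 bases gave whole multiples of a fixed step for 100.0% of values above 0 (tolerance 0.05), which are the recovered reads.

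From these were computed differences of log2(FPKM + 1), FPKM ratios, and exact conditional 95% intervals over reads and over reads divided by the modal number (Python 3.11.15, scipy 1.17.1). The modal number is the most frequent read number of 4 or more in a moving window of 7. A gene below 3 such groups of reads in either library (42 and 132 reads) got no fold. With 1 library per group no test was made. All 50 members could be named. Of the 2 pathway lists the rule named the genes past 1.5-fold and always Adrm1, Sem1, Pomp, Nfe2l1, Tap1, Irf1 and Nlrc5, among others, while Tap2, B2m and Irf9 were named after their values were seen. Some genes the rule names are not reported here. The members and lists were chosen with earlier results of these data known. Promoters are from RefSeq, transcripts from GENCODE M21, where 48 of the 50 members have the table's coordinates. The scripts were tested on simulated data. The alternatives tried are in the closing section.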

Additional observations from a re-analysis of the deposited data

How the results depend on the processing

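The settings tried were 2 other pseudocounts, 5 scalings, 2 filters and, chosen after seeing the data, 4 more (all 45 remaining members, Psme2 and Psme2b summed, a floor of 10 modal read numbers, and transcript lengths). The median difference of the 5 interferon-responsive genes changed from 0.26 to -0.31 with equal FPKM sums. That of the other members changed from 0.21 to -0.36 with equal sums and to -0.024 with library sizes of all recovered reads. The gap between them stayed above 0 in all 12 settings that apply to it. A change of scaling shifts both medians almost alike, so the 5 scalings could hardly change the sign of the gap. Equal FPKM sums left 0 members 2-fold higher, 2 members 2-fold lower, 2 at 1.5-fold higher and 11 at 1.5-fold lower. Library sizes of all recovered reads gave 3 at 1.5-fold higher and 2 at 2-fold lower, and sizes that leave out hemoglobin, mitochondrial and ribosomal genes also gave 2 at 2-fold lower (Psma8 and Psmg4). A pseudocount of 5 left 1 member 2-fold higher (Psmd10) and 0 lower. An FPKM minimum of 5 left 0 at 2-fold lower and 1 at 1.5-fold lower, and the modal minimum 0 of either, since fewer genes pass. Transcript lengths changed the Psmb8 share in the BMT library to 40.2% and the Psmb10 shares to 41.5% and 43.8%. No paired analysis was possible because each group has 1 library. Depth limits Psma8, Psmg3 and Psmg4 most.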
